A study of Mus musculus with 20 samples.

Results

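The TNF superfamily ligands (Tnfsf genes) and receptors (Tnfrsf genes) of primary mouse renal tubular epithelial cells are described here. Members were taken by name: every gene of the count table whose symbol starts with Tnfsf or Tnfrsf followed by a number. This gave 32 of 55891 gene IDs, namely 11 ligands, 20 receptors and the antisense gene Tnfsf13os. Their share of a library's counts was 0.0411 to 0.101%. The cells came from mice of strain B6.129-Ptprz1tm1Nmo, which carries a targeted allele of the receptor-type tyrosine phosphatase gene Ptprz1. Heterozygous (het) cells stand for Ptprz-expressing cells and knockout (KO) cells for cells without it. Each genotype was left untreated (control) or given LPS (100 ng/mL) together with IFNγ (10 ng/mL) for 24 h, and each of the 4 groups has 5 libraries. LPS acts through Toll-like receptor 4 and IFNγ through the interferon-gamma receptor. All cultures, stimulated or not, grew with serum, EGF, insulin, hydrocortisone, epinephrine, thyroid hormone and prostaglandin. Control and stimulated libraries share animals, and no wild-type group is among the samples.

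TNF superfamily ligands are trimeric membrane or shed proteins that bind receptors with cysteine-rich repeats. Some receptors carry a death domain and can start caspase-driven cell death, others recruit TRAF adaptors and activate NF-kB, and a few are decoys that bind a ligand without full signalling. In the kidney, tubular cells are known as a source and a target of TNF, TRAIL and TWEAK in inflammatory injury.

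Total counts per library ran from 12899528 to 20411411. Ptprz1 itself had 0 to 4 counts per library in het cells and 0 to 7 in KO cells, so at this depth it gave no check of the genotype labels. Nos2, an interferon and LPS target that is not a member, was at 1256 to 3567 CPM (counts scaled to library depth) in 8 of 10 stimulated libraries and at 0.22 CPM or less in 8 of 10 controls. The other 4 libraries went against their labels: Nos2 was at 82.9 and 203 CPM in the libraries labelled het control 5 and KO control 4, and at 0 in those labelled het LPS+IFNγ 5 and KO LPS+IFNγ 4. Both pairs come from single animals (4 and 8). Results are therefore given for all 20 libraries as labelled and for the 16 libraries of the other animals. The 16 were chosen by genes that respond to the treatment, so they are no independent evidence of a response. Animals 5 and 7 are listed under both genotypes. The tubular markers Pax8, Pax2 and Cdh16 were at 22.9 CPM or more in every library. Proximal tubule genes differed: the transporters Slc34a1, Slc22a6 and Slc5a2 did not exceed 0.769, 0.205 and 0.358 CPM. Lrp2, Cubn and Ggt1 were found in every library, Lrp2 at up to 232 CPM, Cubn at 2.41 to 31.9 CPM and Ggt1 at 1.90 to 159 CPM. Hnf4a ran from 0 to 174 CPM and Aqp1 from 0 to 84.9 CPM. The epithelial markers varied: Epcam was at 0.146 to 0.935 CPM, Cdh1 at 0.365 to 1.72 CPM and Krt8 at 1.13 to 7.15 CPM in the 6 libraries of animals 2 (het), 6 and 10 (KO), against 13.97 to 75.9, 18.8 to 201 and 56.2 to 371 CPM in the other 14. Pax8 was at 185 to 388 CPM in these 6 and 134 to 326 CPM in the other 14, Pax2 at 66.2 to 133 and 41.8 to 84.9 CPM. Cdh16 was at 22.9 to 119 and 75.0 to 791 CPM. Libraries of animals 1 and 9, all het, stood apart in makeup: 14 leukocyte markers summed to 69.2 to 317 CPM there and to 4.59 to 22.5 CPM in the other 16. In the same 4 libraries 9 tubular epithelial markers summed to 1529 to 1878 CPM, against 426 to 1420 CPM elsewhere, and 8 fibroblast markers to 25.7 to 337 CPM, against 615 to 9590 CPM. Of the macrophage genes, Lyz2 was at 17.0 to 215 CPM and Adgre1 at 1.79 to 29.6 CPM in those 4 libraries, against 0.325 to 9.76 and 0 to 1.16 CPM elsewhere, while Csf1r overlapped (0.728 to 40.4 and 0.391 to 15.4 CPM). The lymphocyte genes Cd3e, Cd79a, Ms4a1 and Nkg7 were at 0.0638 CPM or less in all libraries. In these bulk samples fewer cells of a type and less RNA per cell cannot be told apart.

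In the 16 libraries, 2 ligands and 3 receptors rose with LPS+IFNγ in het cells: Tnfsf10 (TRAIL), Tnfsf13b (BAFF), Tnfrsf14 (HVEM), Tnfrsf9 (4-1BB) and Tnfrsf1b (TNF receptor 2). In KO cells 4 of these 5 were called higher. Tnfrsf1b was also higher there without overlap (log2 fold change 0.97) but missed the threshold (edgeR adjusted p = 0.216). Of 18 members tested, those called are 5 in het and 4 in KO, where 5.67% and 4.81% of all genes tested were called higher, and with all 20 libraries edgeR called 0 of 18. Tnfsf10, Tnfsf13b and Tnfrsf14 passed the count filter only with libraries where they are high. Among the 14 members that pass on controls alone, 2 in het and 1 in KO were called. The counts therefore do not support a shift of the family. No member fell. The stretches upstream of these 5 genes are shown here because these are the members whose levels moved. They are the 250 bases before the start of a transcript in the RefSeq promoter table (mouse build GRCm38.p6), 5′ to 3′ on the gene's strand, with motif matches in capitals. The motifs searched on both strands were the GAS element TTCNNNGAA (known from interferon-gamma signalling), the ISRE core GAAANNGAAA (bound by interferon regulatory factors) and the NF-kB motif. The last overlaps neither of the others in these windows.
Tnfsf10, chr3:27316827-27317076, plus strand: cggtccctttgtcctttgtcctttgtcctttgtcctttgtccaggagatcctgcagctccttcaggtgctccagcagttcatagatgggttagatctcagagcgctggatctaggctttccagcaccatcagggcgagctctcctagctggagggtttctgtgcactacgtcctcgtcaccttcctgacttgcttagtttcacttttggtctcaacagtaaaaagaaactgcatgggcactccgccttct
Tnfsf13b, chr8:10006383-10006632, plus strand: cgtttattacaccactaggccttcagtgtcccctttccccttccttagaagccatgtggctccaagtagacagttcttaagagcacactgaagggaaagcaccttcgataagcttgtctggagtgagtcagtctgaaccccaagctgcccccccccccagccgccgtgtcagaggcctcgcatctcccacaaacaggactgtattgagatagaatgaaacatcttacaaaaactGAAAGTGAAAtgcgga
Tnfrsf14, chr4:154928078-154928327, minus strand: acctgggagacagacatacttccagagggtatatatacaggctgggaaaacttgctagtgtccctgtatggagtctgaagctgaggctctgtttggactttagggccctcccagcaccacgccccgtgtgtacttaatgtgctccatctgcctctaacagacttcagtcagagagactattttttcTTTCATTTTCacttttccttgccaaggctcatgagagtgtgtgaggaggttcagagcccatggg
Tnfrsf9, chr4:150927749-150927998, plus strand: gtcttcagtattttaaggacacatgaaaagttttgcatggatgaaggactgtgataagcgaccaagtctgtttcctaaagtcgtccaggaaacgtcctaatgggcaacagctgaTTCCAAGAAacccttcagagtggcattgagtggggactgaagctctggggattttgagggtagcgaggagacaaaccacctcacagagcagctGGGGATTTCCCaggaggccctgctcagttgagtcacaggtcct
Tnfrsf1b, chr4:145246871-145247120, minus strand: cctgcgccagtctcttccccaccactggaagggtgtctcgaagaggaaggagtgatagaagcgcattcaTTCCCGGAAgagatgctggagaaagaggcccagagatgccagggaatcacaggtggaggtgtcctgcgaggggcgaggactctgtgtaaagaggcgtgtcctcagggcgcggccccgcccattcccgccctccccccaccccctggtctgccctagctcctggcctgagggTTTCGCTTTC
The Tnfrsf14, Tnfsf13b and Tnfrsf1b windows hold an ISRE core, whose first base lies at −64, −16 and −10 from the start. A GAS element lies at −181 from the start of Tnfrsf1b and at −136 from that of Tnfrsf9, and the Tnfrsf9 window also holds 2 overlapping NF-kB matches. The Tnfsf10 window holds none of the 3 motifs, which says only that these letters are not in this stretch. Tnfrsf9 and Tnfsf13b each have another start in the table, whose window holds no match. Among all 32851 windows of this length in the table, 7.02% hold a GAS element, 2.98% an ISRE core and 7.25% an NF-kB motif. Of the 24 members with a window, 5 hold a GAS element, 4 an ISRE core and 3 an NF-kB motif, and those include Tnfrsf17, Tnfrsf18, Tnfrsf25 and Tnfrsf8, which were too low to be tested. The shares are per window, while a member counts if any of its windows holds a match (28 windows for 24 members). The members' counts and these shares are therefore not like for like. A match is a stretch of letters and not a shown binding site.

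Levels of different genes are compared as CPM per kb of exon, as mean ± SD. In the 8 control libraries of the 16, Tnfrsf12a (FN14, the TWEAK receptor) was highest at 60.7 ± 17.3, followed by Tnfrsf1a (TNF receptor 1) at 40.2 ± 6.12. Their ranges met, at 30.9 to 82.5 and 31.4 to 47.5. Next came a group whose ranges overlapped: Tnfrsf10b (the TRAIL death receptor) at 12.3 ± 2.55, Tnfrsf23 at 12.2 ± 3.78, Tnfrsf21 (DR6) at 11.8 ± 6.19 and the ligand Tnfsf12 (TWEAK) at 11.7 ± 2.48. Tnfrsf1b at 6.09 ± 2.39 and Tnfrsf22 at 5.85 ± 0.98 followed. Thus the TWEAK ligand and its receptor, the main TNF receptor and the TRAIL receptor were all among the 6 highest members in untreated cells, while the TRAIL ligand Tnfsf10 was at 0.0266 ± 0.0445. In the 8 stimulated libraries Tnfsf10 stood at 9.21 ± 3.81, with a range that overlapped those of Tnfsf12 (10.4 ± 2.51) and its receptor Tnfrsf10b (12.3 ± 3.19). Tnfrsf1a (57.6 ± 14.1) and Tnfrsf12a (56.9 ± 19.0) were then the highest members and did not differ beyond their spread.

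**Figure D1:**
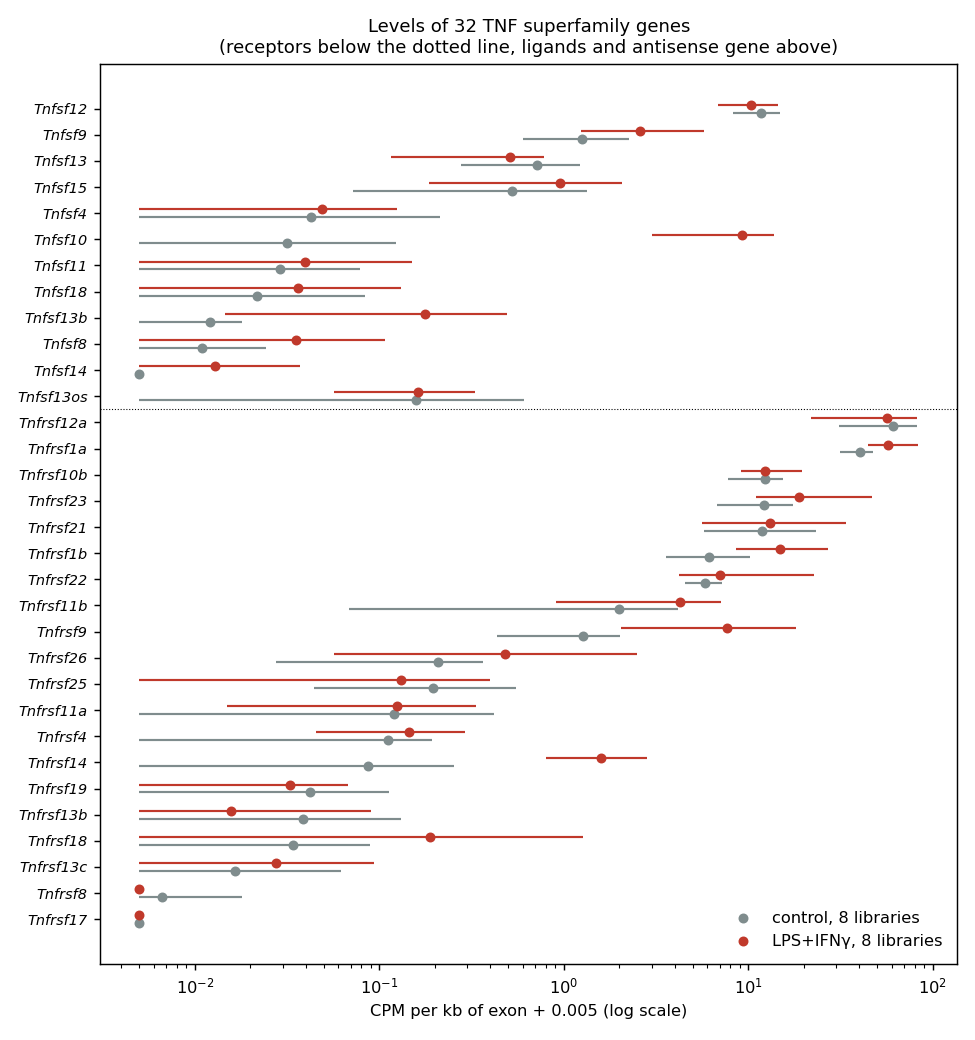
Level of each of the 32 members as CPM per kb of exon plus 0.005 on a log axis, in 8 control (grey) and 8 LPS+IFNγ (red) libraries, het and KO together. Points are means and lines run from the lowest to the highest library. Tnfsf10 moves from 0.0266 to 9.21 and Tnfrsf14 from 0.0823 to 1.58, whereas Tnfrsf12a and Tnfsf12 have overlapping ranges in both states.

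A count filter left 18 of the 32 members for testing, in the 20 as in the 16 libraries. Of these, 14 passed on the control libraries alone. Tnfsf10, Tnfrsf14, Tnfsf13b and Tnfrsf11a passed only with other libraries, where some of them are high, so the counts that follow describe and do not support a shift of the family. With 20 libraries edgeR called 0 of 18 members between LPS+IFNγ and control in either genotype (adjusted p under 0.05, background 0% of 14568 genes). At an unadjusted p under 0.05 there were 5 members in het cells, where 13.6% of all genes passed, and 5 in KO cells, where 8.97% passed. DESeq2 called 2 members in het (Tnfrsf1b and Tnfrsf14) and 1 in KO (Tnfsf13b), where it called 3.13% and 0.677% of the genes that it gave an adjusted p, and limma-voom called 0. For the 13 members that were called in neither set the 20-library adjusted p was 0.289 or more in het and 0.528 or more in KO. With 16 libraries edgeR called 5 of 18 members higher in het cells, against a background of 5.67% higher among 14630 genes, and 4 of 18 higher in KO cells, against 4.81%. Among the 14 members that pass on controls alone, 2 in het and 1 in KO were called. The median log2 fold change of the 18 members was 0.91 in het and 0.67 in KO, beside −0.026 and −0.0059 over all genes tested. Leaving out animals 1 and 9 as well, a choice made after seeing the data, gave 2 called members in het (Tnfsf10 and Tnfrsf14) and 6 in KO (with Tnfrsf1a and Tnfrsf1b added), where that fit called 3.69% and 8.66% of all genes higher. Animals 1 and 9 are het, so the KO libraries were the same in that fit. Leaving out animals 2, 6 and 10, also chosen after seeing the data, left 3 against 3 het and 2 against 2 KO libraries and gave 2 called members in het (Tnfsf10 and Tnfrsf14; 2.57% of all genes) and 1 in KO (Tnfsf10; 1.05%).

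Tnfsf10 encodes TRAIL, a ligand that can trigger cell death through Tnfrsf10b. Its levels in het controls 1 to 5 were 0.626, 0.128, 0, 0 and 5.51 CPM, and in het LPS+IFNγ libraries 15.8, 48.6, 21.8, 72.2 and 0.104 CPM. KO controls were at 0, 0, 0, 8.25 and 0.365 CPM and KO LPS+IFNγ libraries at 56.9, 48.0, 65.7, 0.324 and 59.1 CPM. The high controls and the low stimulated libraries are the 4 of animals 4 and 8: their controls lay between the ranges of the other libraries and their stimulated libraries within the control range. Without them the groups did not overlap in either genotype. The edgeR log2 fold change was 7.55 ± 0.89 in het (adjusted p = 5.82e-05) and 9.41 ± 1.02 in KO (adjusted p = 2.45e-05). The KO control value rests on 5 counts in 4 libraries, so the ratio of pooled counts is also given: 764 (95% counting interval 327 to 2355) in KO and 188 (116 to 330) in het. These intervals cover counting error only. With 20 libraries the log2 fold changes were 4.66 ± 1.65 (adjusted p = 0.21) and 4.74 ± 1.65 (adjusted p = 0.362). The 16-library call held under all 26 alternatives in both genotypes.

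None of the receptors for TRAIL was called. Tnfrsf10b, the only mouse TRAIL receptor with a death domain, ran from 42.2 to 84.3 CPM in 19 libraries and stood at 107 CPM in het LPS+IFNγ 1. Its log2 fold change was 0.25 ± 0.22 in het and −0.25 ± 0.22 in KO (adjusted p = 0.568 and 0.666). Tnfrsf22 and Tnfrsf23 are decoy-type TRAIL receptors, and with Tnfrsf26 they lie side by side on chromosome 7 and are similar in sequence, so reads may be split between them. All 3 were highest in 1 library, het LPS+IFNγ 1: Tnfrsf22 was at 95.5 CPM there and at 17.8 to 30.3 elsewhere. Tnfrsf23 was at 185 CPM in that library and at 26.9 to 71.3 elsewhere, and Tnfrsf26 at 8.01 CPM and at 0.073 to 2.23 elsewhere. No test passed for any of them: the log2 fold change in het was 0.68 ± 0.41 for Tnfrsf22, 1.00 ± 0.40 for Tnfrsf23 and 1.69 ± 0.96 for Tnfrsf26 (adjusted p = 0.383, 0.163 and 0.347). Without that library the values were −0.22, 0.38 and 0.13. In KO cells they were −0.34, 0.19 and −0.30.

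**Figure D2:**
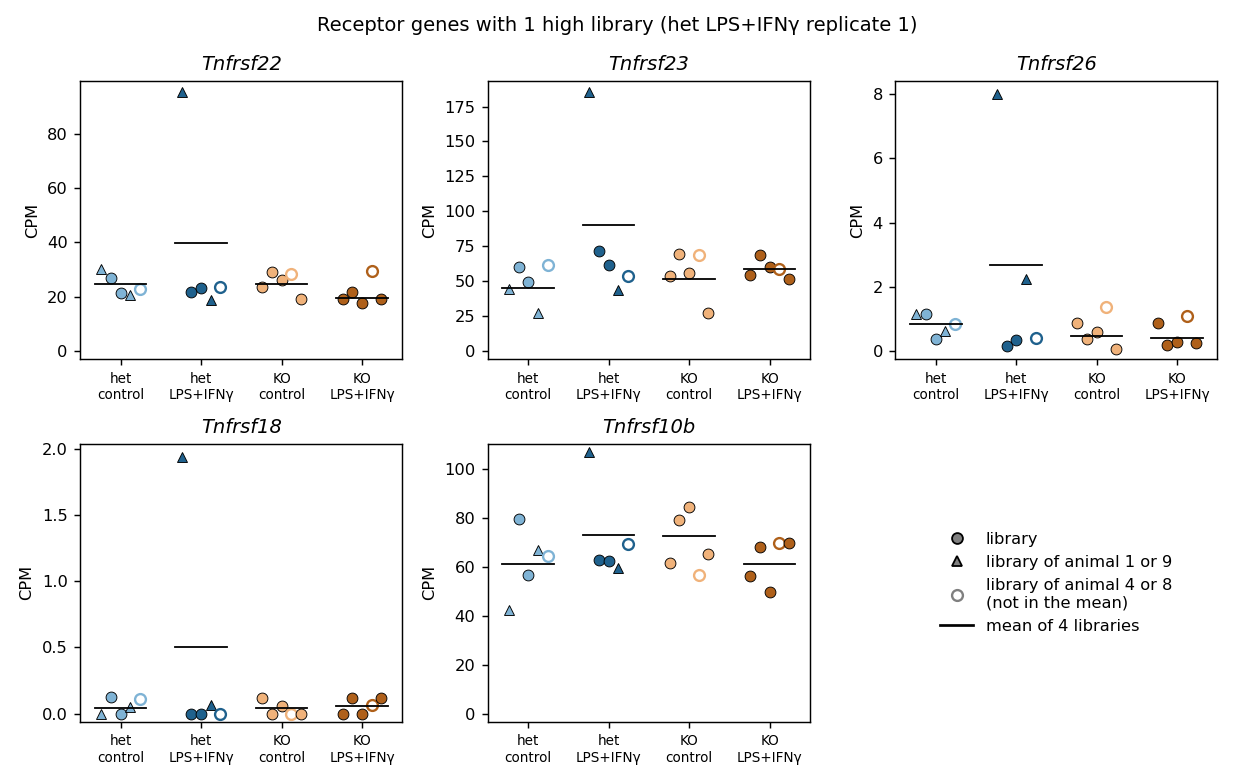
CPM of Tnfrsf22, Tnfrsf23, Tnfrsf26, Tnfrsf18 and Tnfrsf10b in each library by group, on linear axes. Triangles mark libraries of animals 1 and 9, open circles those of animals 4 and 8, and lines the mean of the other 4 libraries of a group, triangles included. In each panel het LPS+IFNγ replicate 1 is the highest point, for Tnfrsf22 at 95.5 CPM.

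Tnfrsf14 encodes HVEM, the receptor for the ligand LIGHT. It was at 0.0447, 0.0638, 0.0547, 0.359 and 0.668 CPM in het controls and at 4.07, 2.22, 2.02, 2.999 and 0 CPM in het LPS+IFNγ libraries. In KO cells controls were at 0.117, 0.163, 0, 0.937 and 0.146 CPM and stimulated libraries at 2.41, 1.14, 1.51, 0.259 and 1.85 CPM. Again the groups overlapped only through the libraries of animals 4 and 8. The log2 fold change was 4.35 ± 0.68 in het (adjusted p = 0.000757) and 3.94 ± 0.70 in KO (adjusted p = 0.00231). With 20 libraries it was 3.21 ± 1.03 and 2.38 ± 1.02 (adjusted p = 0.167 and 0.496). In the 16 libraries the controls held only 10 counts in het and 7 in KO. The ratio of pooled counts there was 21.4 (95% counting interval 11.4 to 45.4) in het and 16.4 (7.74 to 41.8) in KO. The call held under all 26 alternatives in het and under 25 of 26 in KO, where it was lost without animals 2, 6 and 10 (3.73, adjusted p = 0.191). Its ligand gene Tnfsf14 had 2 counts in all 20 libraries together.

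Tnfrsf9 encodes 4-1BB, a costimulatory receptor best known from T cells. Het controls were at 1.16, 4.85, 1.75, 4.10 and 19.0 CPM and het LPS+IFNγ libraries at 5.52, 20.7, 14.9, 21.2 and 5.32 CPM. KO controls were at 5.48, 3.69, 4.38, 13.0 and 2.26 CPM and KO LPS+IFNγ libraries at 13.3, 28.1, 13.9, 6.93 and 49.1 CPM. Het control 5 lay within the stimulated range, and without animals 4 and 8 the groups did not overlap in either genotype. The log2 fold change was 2.40 ± 0.56 in het (adjusted p = 0.0165) and 2.72 ± 0.56 in KO (adjusted p = 0.00824). With 20 libraries it was 1.13 ± 0.71 and 1.95 ± 0.72 (adjusted p = 0.515 and 0.398). The het call was lost in 5 of 26 alternatives, among them limma-voom (adjusted p = 0.0668), and the KO call in 2, without animals 5 and 7 (adjusted p = 0.0609) and without animals 2, 6 and 10 (1.56, adjusted p = 0.747). The T cell gene Cd3e was at 0 in every library. Its ligand gene Tnfsf9 (4-1BBL) had log2 fold changes of 1.37 ± 0.48 in het and 0.74 ± 0.47 in KO (adjusted p = 0.109 and 0.521). Tnfsf9 was at 0.769 to 2.13 CPM in het controls and at 1.46 to 7.40 CPM in het stimulated libraries, which overlap. It passed in het in 2 of 26 alternatives: with the animal as a block (12 libraries, without animals 5 and 7) the value was 1.70 with an adjusted p of 0.0316, and DESeq2 gave 0.046. It was 0.72 (adjusted p = 0.395) without het LPS+IFNγ 1 and 0.69 (adjusted p = 0.562) without animals 1 and 9, and limma-voom gave an adjusted p of 0.168.

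Tnfsf13b encodes BAFF, a survival factor for B cells. Het controls were at 0.0894, 0.0638, 0.0547, 0.0513 and 0.445 CPM and het LPS+IFNγ libraries at 0.667, 1.16, 0.0652, 0.511 and 0.156 CPM. KO controls were at 0.0583, 0, 0, 0.187 and 0.073 CPM and KO LPS+IFNγ libraries at 0.632, 0.843, 3.35, 0.259 and 2.21 CPM. It was the 1 member whose KO groups did not overlap with all 20 libraries, where 0.35% of genes were higher without overlap. That rests on 3 counts in KO control 4 and 4 counts in KO LPS+IFNγ 4, both of animal 8. In het cells no member reached this with 20 libraries (background 0.329%). In the 16 libraries KO control held 2 counts and KO LPS+IFNγ 122, a ratio of 59.0 (95% counting interval 15.99 to 492.7), with an edgeR adjusted p of 0.00174. The KO call held in 24 of 25 alternatives and was lost without animals 2, 6 and 10 (5.81, adjusted p = 0.187). In het the log2 fold change was 3.08 ± 0.85 (adjusted p = 0.0405), on 5 control and 41 stimulated counts, and the call held in 11 of 25 alternatives. With 20 libraries neither genotype passed (adjusted p = 0.372 for het, 0.321 for KO). Its receptors Tnfrsf13b (TACI), Tnfrsf13c (BAFF receptor) and Tnfrsf17 (BCMA), which mark B-lineage cells, had 21, 9 and 0 counts over the 20 libraries.

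**Figure D3:**
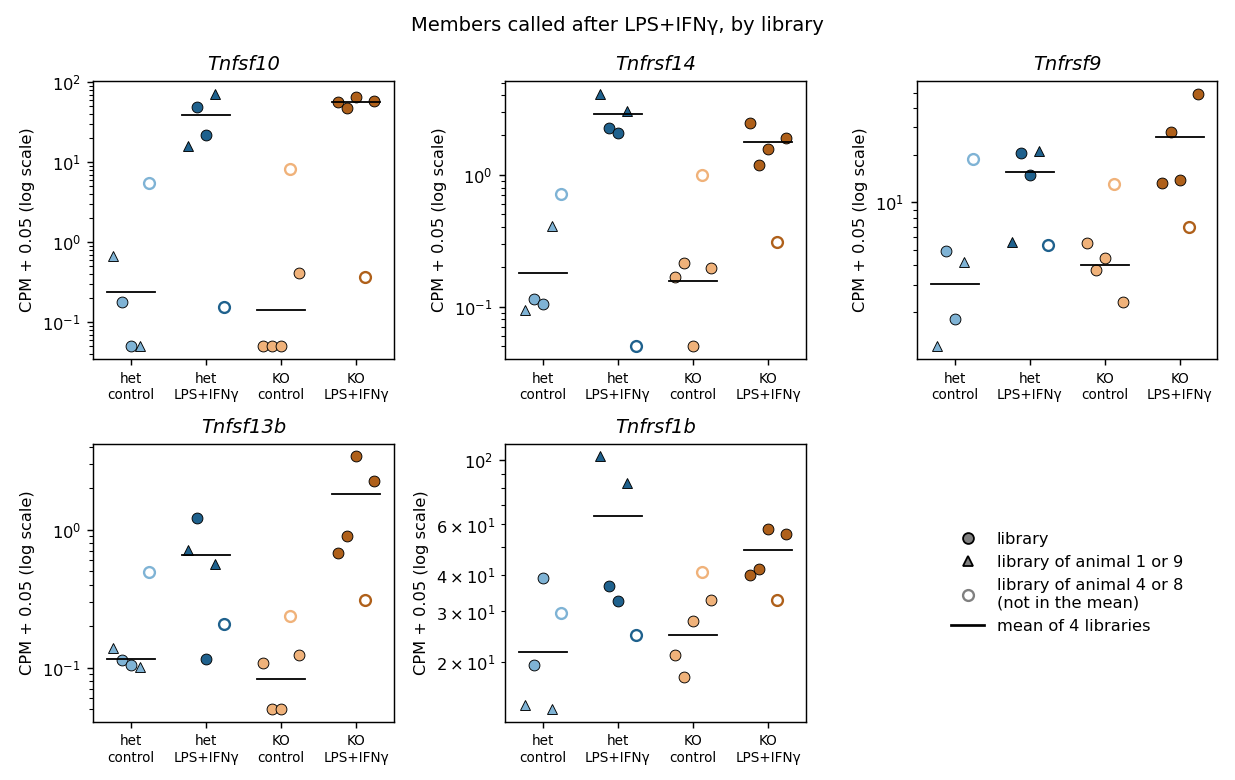
CPM plus 0.05 on a log axis for the 5 members called in the 16 libraries, each point 1 library. Open circles are the libraries of animals 4 and 8, triangles those of animals 1 and 9, and lines the mean of the other 4 libraries of a group, triangles included. For Tnfsf10 the 8 filled stimulated points lie at 15.8 CPM or more and the 8 filled controls at 0.626 CPM or less.

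The receptors for TNF were expressed in every library. Tnfrsf1a, the death-domain receptor TNFR1, was at 81.5 to 123 CPM in the 10 controls and at 78.6 to 217 CPM in the 10 stimulated libraries. Its log2 fold change was 0.44 ± 0.21 in het and 0.60 ± 0.21 in KO (adjusted p = 0.247 and 0.124), and with 20 libraries 0.37 and 0.49. It passed in het in 1 of 26 alternatives, the animal block without animals 5 and 7 (0.55, adjusted p = 0.0347), and was 0.18 (adjusted p = 0.65) without het LPS+IFNγ 1 and 0.21 (adjusted p = 0.741) without animals 1 and 9. In KO it passed in 2, without het LPS+IFNγ 1 (adjusted p = 0.0305) and without animals 1 and 9 (adjusted p = 0.0342). The left-out libraries are all het, and the KO value stayed at 0.60 and 0.61. All 4 groups share 1 estimate of the spread, so these passes rest on the same KO libraries. Tnfrsf1b, the TRAF-binding receptor TNFR2, was at 14.2, 19.6, 39.0, 13.7 and 29.7 CPM in het controls and at 103, 36.6, 32.6, 83.5 and 24.8 CPM in het LPS+IFNγ libraries. KO controls were at 21.1, 17.8, 27.8, 41.1 and 32.9 CPM and KO LPS+IFNγ libraries at 40.1, 42.1, 57.9, 32.7 and 55.5 CPM. Both het libraries above 80 CPM belong to animals 1 and 9, whose controls were the lowest of their group. The log2 fold change was 1.56 ± 0.40 in het (adjusted p = 0.0277) and 0.97 ± 0.40 in KO (adjusted p = 0.216). Without animals 1 and 9 the het value was 0.25 (adjusted p = 0.801), and the KO value was 0.98 with an adjusted p of 0.0232. That fit left out no KO library, so the KO value rests on the same libraries. The leukocyte and the proximal tubule markers of those 4 libraries each summed to more than in any other library, control and stimulated alike. These cannot be told apart here, and their part in the Tnfrsf1b result was not tested. In the KO groups of the 16 libraries Tnfrsf1b did not overlap, and leukocyte markers summed to 11.5 to 18.9 CPM in controls and 4.59 to 9.46 CPM in stimulated libraries. Csf1r is part of that sum, at 5.32 to 15.4 CPM in these controls and 0.391 to 3.33 CPM in these stimulated libraries. The median log2 fold change of the 9 tested leukocyte genes was 0.70 in KO, so the sum does not speak for each marker. Counting members rather than calls, 3 were higher without overlap in het (Tnfsf10, Tnfrsf14, Tnfrsf9; background 7.23%) and 5 in KO (these with Tnfsf13b and Tnfrsf1b; background 10.7%). Tnfsf10, Tnfrsf14 and Tnfsf13b among them passed the count filter only with other libraries. These counts too do not support a shift of the family.

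**Figure D4:**
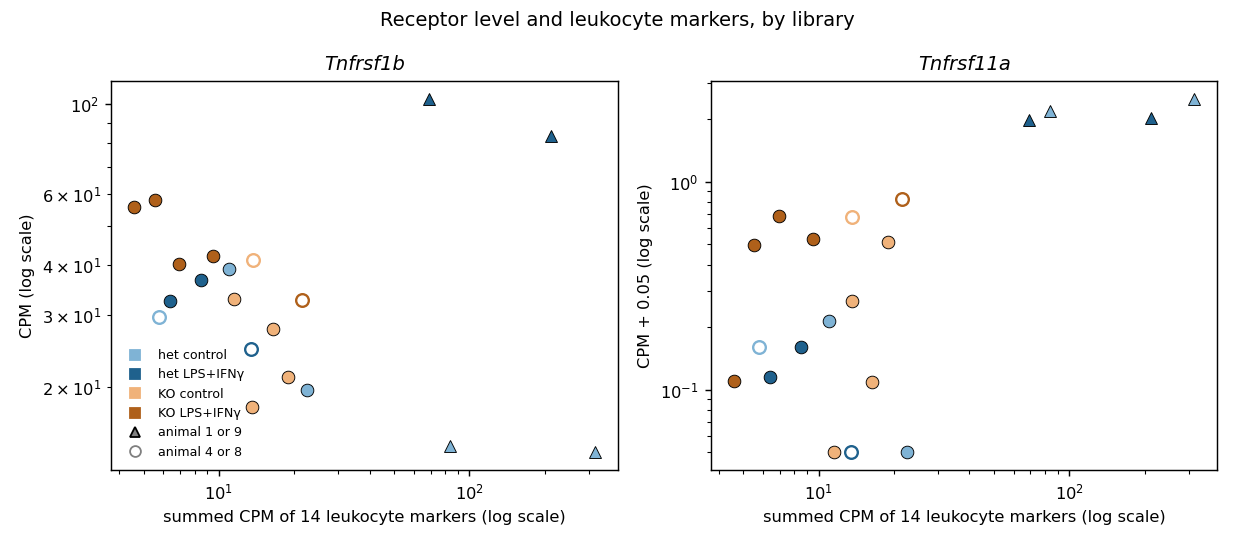
CPM of Tnfrsf1b (left) and of Tnfrsf11a plus 0.05 (right) against the summed CPM of 14 leukocyte markers, all axes log, each point 1 library coloured by group. Triangles are animals 1 and 9 and open circles animals 4 and 8. The triangle libraries also had the highest summed proximal tubule markers. Tnfrsf11a is at 1.94 to 2.46 CPM in the 4 triangle libraries and at 0.777 CPM or less in the others, whereas Tnfrsf1b is lowest in 2 of the triangles and highest in the other 2.

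In the RANK branch nothing was called after treatment, and the receptor was highest in 2 animals. Tnfrsf11a encodes RANK, the receptor of RANKL on osteoclast precursors and other cells, and Tnfrsf11b encodes osteoprotegerin, a secreted decoy for the same ligand. Tnfrsf11a was at 1.94 to 2.46 CPM in the 4 libraries of animals 1 and 9 and at 0 to 0.777 CPM in the other 16. Tnfrsf11b showed the reverse order, at 0.179 to 2.85 CPM against 1.39 to 27.4 CPM, with overlap. The animals were singled out by their leukocyte markers, and their libraries also had the highest summed proximal tubule markers. These values are a description made after seeing the markers. The log2 fold change of Tnfrsf11a with LPS+IFNγ was −0.23 ± 1.19 in het and 1.07 ± 1.36 in KO, and that of Tnfrsf11b was 1.15 ± 0.92 and 1.07 ± 0.91 (adjusted p = 0.535 or more). The ligand gene Tnfsf11 (RANKL) had 19 counts in all. Tnfrsf21, a death-domain receptor expressed in many tissues, was also higher in animals 1 and 9, at 61.4 to 139 CPM against 23.1 to 59.0 CPM, with log2 fold changes of 0.14 ± 0.49 and 0.15 ± 0.49 for the treatment, the first at −0.48 without het LPS+IFNγ 1.

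The TWEAK pair was abundant and showed no called change. Tnfrsf12a ran from 42.2 to 166 CPM over the 20 libraries, with log2 fold changes of 0.11 ± 0.34 in het and −0.34 ± 0.34 in KO (adjusted p = 0.899 and 0.727). Tnfsf12 ran from 8.44 to 22.6 CPM, with −0.32 ± 0.24 and −0.04 ± 0.24 (adjusted p = 0.5 and 0.971). Its neighbour Tnfsf13 (APRIL, a B cell factor) ran from 0.182 to 2.00 CPM, with −0.75 ± 0.58 and −0.21 ± 0.58 (adjusted p = 0.518 and 0.925). Tnfsf12, Tnfsf13 and the antisense gene Tnfsf13os overlap on chromosome 11, so how their reads were divided is uncertain. Tnfsf15 (TL1A, the ligand of DR3) was at 0.224 to 12.2 CPM, highest in het control 5, with log2 fold changes of 0.81 ± 0.83 and 0.92 ± 0.82 (adjusted p = 0.642 and 0.682). Its receptor Tnfrsf25 (DR3) had 129 counts in all and was at 0 to 1.24 CPM.

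**Figure D5:**
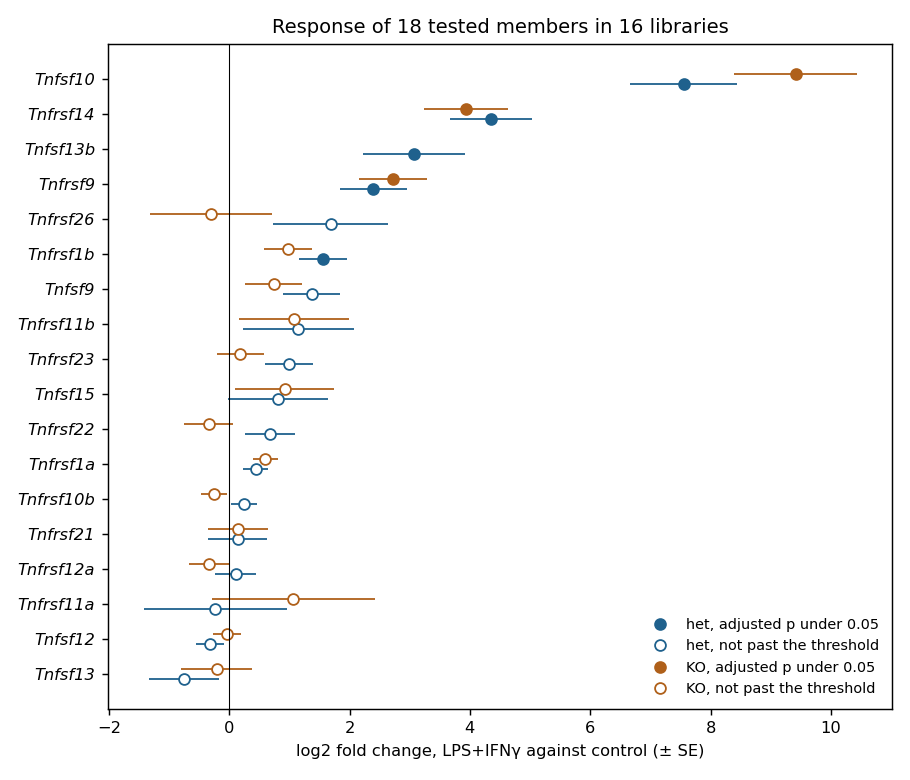
Log2 fold change with SE (bars) of the 18 tested members, LPS+IFNγ against control, in het (blue) and KO (orange) cells in 16 libraries. Filled points passed edgeR's adjusted p of 0.05. Tnfsf10 has the highest values, 7.55 and 9.41, and the KO value of Tnfsf13b is left out because KO control held 2 counts.

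The 14 members that were not tested held 0 to 129 counts over the 20 libraries. They are Tnfsf4, Tnfsf8, Tnfsf11, Tnfsf14, Tnfsf18, Tnfsf13os, Tnfrsf4, Tnfrsf8, Tnfrsf13b, Tnfrsf13c, Tnfrsf17, Tnfrsf18, Tnfrsf19 and Tnfrsf25, mostly costimulatory ligands and receptors known from lymphocytes. The highest single value among them was 1.94 CPM, for Tnfrsf18 (GITR) in het LPS+IFNγ 1, while its other libraries were at 0.128 CPM or less. Tnfrsf17 had no count, which allows up to 0.134 to 0.219 CPM per library at 3 counts, for counting error only. The members lie on 11 chromosomes, with 9 on chromosome 4, and some neighbours there had unlike levels. Tnfrsf1b, called in het cells, lies next to Tnfrsf8, which had 2 counts, and Tnfsf15 (1096 counts) next to Tnfsf8 (28 counts). The neighbours Tnfrsf4 and Tnfrsf18 were both low, at 53 and 46 counts.

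Between genotypes no member was called. KO against het in control cells gave 0 of 18 by edgeR with 20 and with 16 libraries, where the background was 0%, and 0 members at an unadjusted p under 0.05 (3.43 and 5.29% of all genes). DESeq2 and limma-voom called 0 as well. In stimulated cells edgeR called 0 (background 0%), with 2 members at an unadjusted p under 0.05 in 20 libraries and 3 in 16 (2.51 and 5.38% of all genes), and DESeq2 and limma-voom called 0. The 3 were Tnfrsf26 (log2 fold change −2.75 ± 1.02), Tnfrsf22 (−1.04 ± 0.42) and Tnfsf13b (1.53 ± 0.70), each with an adjusted p of 0.748. Without het LPS+IFNγ 1 the first pair were at −1.19 and −0.13. Tnfsf13b was at 0.64 without animals 5 and 7, which are listed under both genotypes. Among stimulated libraries these animals gave its lowest het value (0.0652 CPM) and its highest KO value (3.35 CPM). Groups of the 2 genotypes overlapped for all 18 members in the 16 libraries, where 0.861% of genes were higher and 1.03% lower without overlap in control cells, and 0.984 and 0.663% in stimulated cells. In control cells of the 16 libraries the lowest p was that of Tnfrsf11a, at −2.62 ± 1.33 (adjusted p = 0.892), and its high het libraries are those of animals 1 and 9.

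The difference between the responses, KO minus het, was also not called for any member with 20 or 16 libraries (background 0%, and 0 members at an unadjusted p under 0.05, against 0.947 and 1.53% of all genes). DESeq2 and limma-voom called 0. For Tnfsf10 it was 1.86 ± 1.48 on the log2 scale, for Tnfrsf14 −0.41 ± 1.02, for Tnfrsf9 0.32 ± 0.76 and for Tnfrsf1b −0.59 ± 0.56, each with an adjusted p of 1. A call in 1 genotype and not in the other, as for Tnfrsf1b, is therefore not shown to be a difference between them.

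Other genes of the pathway were taken from lists of family members with other names, TRAF adaptors, the death-domain complex and the NF-kB kinases. Their counts stand beside 5.67% (het) and 4.81% (KO) of all genes called higher in the 16 libraries. There, 1 of 2 tested ligands with other names rose in each genotype: Tnf itself, with log2 fold changes of 5.91 ± 1.26 in het (adjusted p = 0.0143) on 4 control counts, and with 0 control counts against 57 in KO (adjusted p = 0.0361). Of the 7 ligands listed, 2 were tested. Tnf had 2 counts or fewer in each control of the 16 libraries and passed the count filter only with stimulated ones. So 1 of 2 does not support a shift of these ligands. Tnf reached 11.1 CPM in het LPS+IFNγ 4, a library of animal 9, and 1.70 CPM or less in the other 19. Of 5 tested receptors, 2 rose in het and 1 in KO. Fas, a death receptor, rose by 2.27 ± 0.43 and 1.74 ± 0.42 (adjusted p = 0.00385 and 0.0222). Cd40, a costimulatory receptor, rose by 4.51 ± 1.03 in het (adjusted p = 0.0141) and was at 3.22 ± 0.97 in KO (adjusted p = 0.0736). It stood at 69.9 and 67.4 CPM in the stimulated libraries of animals 1 and 9 and at 7.99 and 7.69 CPM in the other 2 het ones. The part of the leukocyte or the proximal tubule markers in this was not tested. Ltbr, the lymphotoxin receptor, was flat at 66.7 to 87.7 CPM in all libraries (−0.09 ± 0.07 and 0.17 ± 0.07, adjusted p = 0.531 and 0.205). Of 9 TRAF adaptors 3 rose in het and 2 in KO, namely Tank (0.79 ± 0.12 in het, 0.39 ± 0.12 in KO with an adjusted p of 0.0787), Traf3ip2 (0.92 and 0.71) and Traf2 (0.74 and 0.73). Of 13 genes of the death-domain complex 6 rose in het and 5 in KO. Ripk1, the kinase of that complex, rose by 0.61 ± 0.08 and 0.57 ± 0.08, Tnfaip3 (A20, a feedback inhibitor of NF-kB) by 3.49 ± 0.48 and 2.48 ± 0.46, and Rnf31, a linear ubiquitin ligase subunit, by 1.55 ± 0.24 and 1.42 ± 0.24. Of 10 NF-kB kinases and subunits 0 passed, with Relb at 0.65 ± 0.21 and 0.54 ± 0.21 (adjusted p = 0.0892 and 0.202), Nfkb2 at 0.39 and −0.01 and Ikbkg at 0.70 and 0.64. No gene of these lists was called lower, and with 20 libraries edgeR called none in either genotype. Of the markers of other cells and of the tubule, 0 of 9 leukocyte, 7 fibroblast, 4 endothelial, 9 tubular epithelial and 5 proximal tubule genes tested were called with treatment in the 16 libraries.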

How the data were processed

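RNA was sequenced in 20 libraries, placed in 4 groups by their titles. The deposited table holds estimated counts, 1 column per library, treated so because the submitters' processing notes name Salmon 1.10.2 (with FastQC 0.11.9, R 4.4.1, DESeq2 1.45.3 and build GRCm39). All values are whole, and 0 per-sample columns were left unused. The kit is directional, per the labels' protocols, and the sources used here do not give the strand setting of counting. Symbols (51425 IDs, 92%), exon lengths and gene order came from GENCODE M21 (GRCm38), and promoter windows, trimmed to the part before the start, from RefSeq.

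The test was edgeR 4.0.16 in R 4.3.3 (TMM factors 0.939 to 1.13, filterByExpr, robust quasi-likelihood F test, 1 model of 4 groups, Benjamini-Hochberg over all genes). CPM uses the same factors, and the SE is the fold change over the square root of F. The scripts were tested on simulated data. Alternatives were DESeq2 1.42.0, limma-voom (limma 3.58.1), other scalings and filters, left-out libraries and an animal block. All tested members are named, and of other lists up to 3 genes by lowest p in het with Tnf, Fas, Cd40 and Ltbr. The members and lists were chosen with earlier results of these data known. The labels name the animals but not how cultures were made from them, so the p-values cover spread between libraries, which may be technical. The animal ID, a label of the samples, pairs control and stimulated libraries: deviations from group means correlated at −0.298 to 0.623 within an animal, above 0.1 in 8 of 10 pairs. Some marker genes of the lists are not reported here.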

Additional observations from a re-analysis of the deposited data

Results flagged for a closer look

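In 13 of 76 groups of 5 libraries, 1 library lay far from the others of its group, where chance gives about 1 in 20 for independent, normally distributed values. CPM values of low genes are skewed and the members share libraries, with 6 of the 13 in a single library, so no excess is read from this. In het LPS+IFNγ replicate 1 it held for Tnfrsf22 (95.5 CPM), Tnfrsf23 (185 CPM), Tnfrsf26 (8.01 CPM), Tnfrsf10b (107 CPM), Tnfrsf21 (139 CPM) and Tnfrsf18 (1.94 CPM), all receptors. In het control 5 it held for Tnfsf10 (5.51 CPM), Tnfrsf9 (19.0 CPM) and Tnfsf15 (12.2 CPM), in KO control 4 for Tnfsf10 (8.25 CPM) and Tnfrsf14 (0.937 CPM), and in KO LPS+IFNγ 4 for Tnfsf10 at the low end (0.324 CPM). These are libraries of animals 4 and 8, whose Nos2 went against their labels. Tnfsf13os stood at 0.666 CPM in het control 4, on few counts.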

How the results depend on the processing

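With 20 libraries the 0 calls of the stimulus comparisons became 2 in het and 1 in KO with DESeq2. Leaving out 1 replicate gave 0 to 2 calls in het, the highest without het LPS+IFNγ 5, and 0 to 1 in KO, the highest without KO LPS+IFNγ 4. With 16 libraries the 5 het calls became 3 with no filter, 3 with limma-voom and 2 without animals 1 and 9 or without animals 2, 6 and 10 (both chosen after seeing the data), and leaving out 1 replicate gave 3 to 5. The cause was not tested. The left-out fits have fewer libraries, and some values moved as well, as for Tnfrsf1b in het (1.56, and 0.25 without animals 1 and 9). In KO the 4 calls became 1 without animals 2, 6 and 10, which left 2 libraries per KO group, and 3 to 6 over the other alternatives. The replicate block by animal, without animals 5 and 7, gave 7 calls in het and 4 in KO with 16 libraries and 0 with 20, adding Tnfrsf1a and Tnfsf9 in het and changing no other call. Genotype comparisons and the difference of responses stayed at 0 members under every alternative run. No called value changed sign. Values under 0.134 CPM rest on fewer than 3 counts in any library.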
